A study of Mus musculus with 2 samples.

Results

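Cytosolic ribosomal protein genes encode the proteins that, with ribosomal RNA, build the large and small subunits of the ribosome, the particle that translates mRNA in the cytoplasm. Their mRNAs are short, abundant and nearly the same in all tissues, and most begin with a run of C and T bases, the terminal oligopyrimidine (TOP) element, through which the kinase mTOR and the RNA-binding protein LARP1 adjust their translation. The genes were chosen by name: protein-coding genes in the deposited annotation called Rpl or Rps with a digit, Rplp or Rpsa, leaving out the Rps6k kinases, pseudogenes named with -ps, and Rps27a, a fusion of ubiquitin with a ribosomal protein. This gave 85 genes, of 16674 annotated genes with a read in either library. Of them 52 carry large-subunit names and 33 small-subunit names, and they lie on 19 chromosomes. A few names fit the rule without being ribosomal proteins in the strict sense: Rps19bp1 encodes a protein that binds RPS19, Rpl7l1 an RPL7-like protein of ribosome assembly, and Rps27rt is a retrotransposed copy of Rps27. They were kept, because the rule holds them.

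The samples were 2 libraries of long-read RNA-seq, which reads single cDNA molecules over their length, from total RNA of the adrenal gland of wild-type C57BL/6J mice, labelled as biological replicates 1 and 2. Both form 1 group of untreated tissue. The sample description says female, the field for sex is not filled in, and the age is listed as unknown. There is no second condition, so every comparison sets 1 library against 1 library, has no replicate check, and describes these libraries and their reads. The libraries carry separate biosample records under 1 donor record, and whether they come from different animals is not stated beyond the replicate label.

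The libraries held 810239 and 587861 reads. Markers of the labelled tissue were present: the 6 cortex markers, among them Cyp21a1 and Star of steroid synthesis, held 7.73% of the reads of replicate 1 and 9.09% of those of replicate 2, and the 5 medulla markers, among them Th and Chga, 0.619% and 0.850%. Of 15 markers of other cells, 10 had a read. Kidney, liver and muscle markers had 0 reads, apart from 1 read each on Apoa1 and Acta1 in replicate 1, while the red cell globins Hba-a1 (539 and 39 reads) and Hbb-bs (513 and 47) and the macrophage gene Lyz2 (726 and 59) were higher in replicate 1. Of the 8 tested, 5 were called higher in replicate 1, among them the fibroblast gene Dcn (171 and 22 reads). Called higher in replicate 2 were 2, the endothelial gene Pecam1 (25 and 114 reads) and the fibroblast gene Col1a1 (10 and 52). The endothelial gene Plvap (80 and 93 reads) was not called. In the length-adjusted test described below, 2 of the 8 were called toward replicate 1 and 4 toward replicate 2. Hbb-bs was among the latter (0.82), and Hba-a1 was not called. The part of these cells in the results below was not tested.

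The ribosomal protein genes took 6.50% of all reads in replicate 1 (52635 reads, 95% Clopper-Pearson interval 6.44% to 6.55%) and 0.473% in replicate 2 (2778 reads, 0.455% to 0.490%), a mean of 3.48% ± 4.26 (SD, n = 2). The SD exceeded the mean, so the mean describes neither library. Reads were seen for 82 of the 85 genes. In replicate 1 all 82 had at least 10 reads, and 23 stood among the 100 genes with most reads. In replicate 2 the number with at least 10 reads was 72, none was among the top 500, and the best placed, Rpl4, had rank 503. The median level of the 82 genes was 736 CPM (the usual scaling of a gene's reads to a common library total) in replicate 1 and 49.3 CPM in replicate 2. Each read stands for 1 sequenced cDNA, so CPM is not divided by length.

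**Figure D1:**
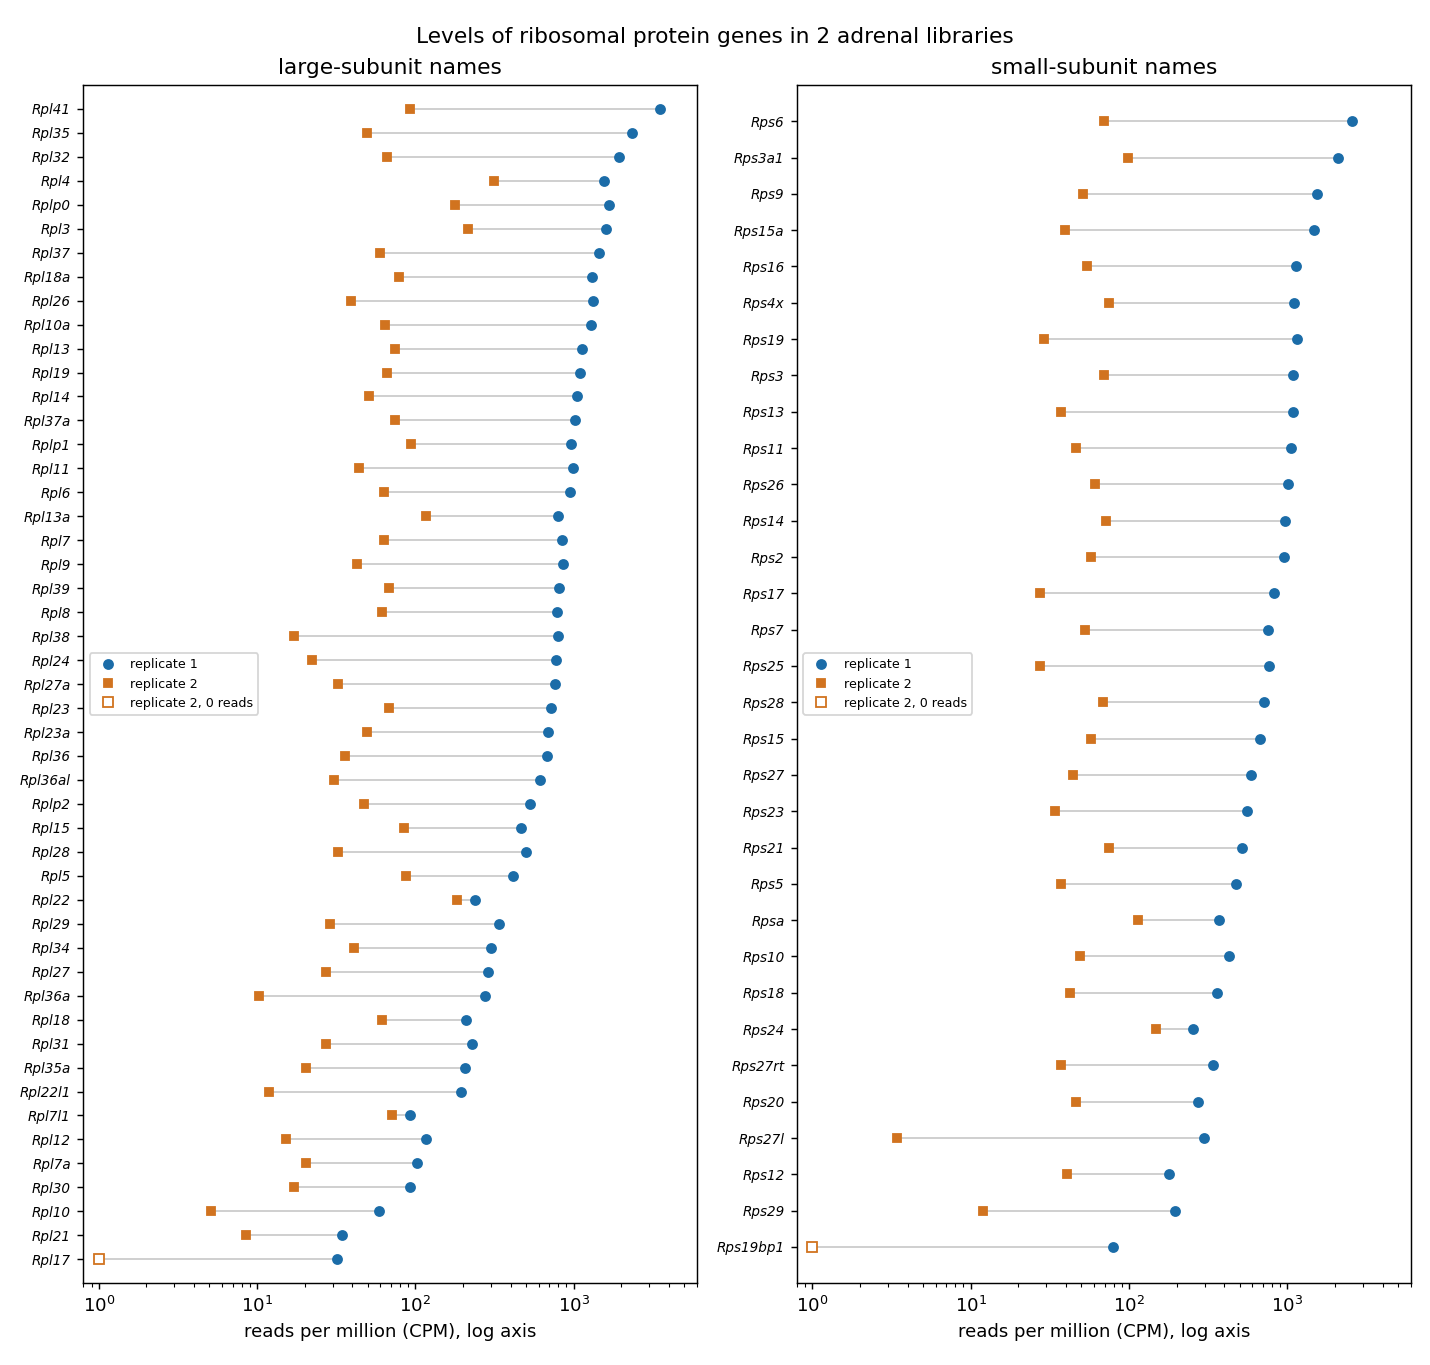
Level of 81 of the 82 detected ribosomal protein genes in CPM (log axis) in replicate 1 (circles) and replicate 2 (squares), large-subunit names left and small-subunit names right, ordered by mean level. Open squares mark 0 reads and are drawn at 1, outside the scale. In every gene drawn the circle lies to the right of the square, from 32.1 to 3500.2 CPM against at most 314.7 CPM.

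By mean level the first 8 genes were Rpl41, Rps6, Rpl35, Rps3a1, Rpl32, Rpl4, Rplp0 and Rpl3. They held 26.5% of the ribosomal protein reads in replicate 1 and 23.0% in replicate 2. Rpl41, which encodes the smallest ribosomal protein, had 3500.2 CPM in replicate 1 and 91.9 CPM in replicate 2. Rps6, whose protein is the classical substrate of the S6 kinases, had 2565 and 69.7 CPM. Rpl35 had 2333 and 49.3 CPM, and Rps3a1 2086 and 98.7 CPM. Rpl32 stood at 1920 and 66.3 CPM. Rpl4 had 1546 CPM in replicate 1 and 315 CPM in replicate 2, the highest value of a ribosomal protein gene in that library. Rplp0 (1662 and 179 CPM) and Rpl3 (1611 and 216 CPM) also stood above the genes just named in replicate 2. The most used annotated models of Rpl4, Rplp0 and Rpl3 have 1538, 1358 and 1351 nt, and the libraries differed by length, as described below. The order of the genes was kept only in part: over the 80 genes with reads in both libraries Spearman's rho of the levels was 0.50 and Pearson's r of log2 CPM was 0.56, as a description across genes that share 2 libraries.

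All 82 detected genes were higher in replicate 1. Each passed the exact two-sided binomial test, which compares a gene's reads in both libraries given their TMM-scaled sizes, with Benjamini-Hochberg adjustment at 0.05 over 9809 genes. Of all genes tested, 35.6% were called higher in replicate 1, and 66.2% were called in either direction. The median log2 ratio of replicate 2 over replicate 1 was -4.27 in the ribosomal protein genes, which is 19.3-fold, and -0.01 over all genes tested. Library totals in place of TMM moved the median of all genes to 0.46 and that of the ribosomal protein genes to -3.80, and 81 of 82 were then called. Of all calls, the share higher in replicate 2 went from 46.2% to 56.8%. Folds below are on the TMM scale, and the ratio of 2 CPM values differs from them by a constant factor. The difference was at least 10-fold in 65 genes and under 5-fold in 5.

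The largest fitted log2 ratios among called genes were those of Rps19bp1, Rps27l, Rpl35, Rpl38 and Rps19. The place of Rps19bp1 rests on the pseudocount, since it had 64 reads in replicate 1 and 0 in replicate 2. With 3 reads set in place of 0 Rps19bp1 was 21.5-fold higher, and its counting interval starts at 17.0-fold and has no upper end. The folds of Rpl41 (52.8-fold), Rps15a (52.3-fold) and Rps6 (51.0-fold) lie above 21.5, and their order relative to Rps19bp1 is not settled. Rps27l, a paralog of Rps27 that is a known p53 target, had 241 reads against 2, a ratio of 121 with a counting interval of 33.2 to 1006. Rpl35 had 1890 reads against 29, or 65.5-fold (45.5 to 98.1). Rpl38 had 647 against 10, or 65.1-fold (35.2 to 136). Rps19, the gene most often mutated in Diamond-Blackfan anaemia, had 928 against 17, or 54.9-fold (34.1 to 94.7). No ribosomal protein gene was called higher in replicate 2.

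The 5 genes with less than a 5-fold difference were named after their values were seen. Rpl22 had 193 and 108 reads, a 1.80-fold difference (1.41 to 2.30). Rpl7l1 had 75 and 42 reads, also 1.80-fold (1.22 to 2.69), and this call was lost with library totals (log2 ratio -0.37, adjusted p = 0.24 by the binomial test). Rps24 had 206 and 87 reads, 2.38-fold (1.84 to 3.10). Rpsa, the laminin receptor and small-subunit protein, had 301 and 67 reads, 4.52-fold (3.46 to 5.98), and Rpl18 169 and 36, 4.72-fold (3.28 to 6.97). Intervals cover counting error only. Whether the cDNA was amplified is not stated, so reads may not be independent molecules.

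The stalk of the large subunit, which recruits elongation factors, is made by Rplp0, Rplp1 and Rplp2. Rplp0 had 1347 and 105 reads, Rplp1 782 and 55, and Rplp2 431 and 28, so the differences were 12.9-fold, 14.3-fold and 15.5-fold with overlapping intervals (10.6 to 15.9, 10.9 to 19.2 and 10.6 to 23.6). Rpl5 and Rpl11, which bind 5S ribosomal RNA and, when free, MDM2, did not move alike: Rpl5 had 334 and 51 reads, 6.59-fold (4.89 to 9.03), and Rpl11 800 and 26 reads, 30.9-fold (20.96 to 47.7). These intervals did not overlap. The most used annotated models of Rpl5 and Rpl11 differ in length (2045 and 833 nt), and the libraries differed by length. Length-adjusted, as described below, both were called toward replicate 1 (log2 -1.93 and -0.92). With the last exon taken from other models, Rpl5 was at 0.75, called toward replicate 2, and Rpl11 at -0.61, not called. Rpl13a, known from the interferon-driven silencing complex and as a reference gene, had 644 and 69 reads, 9.39-fold (7.31 to 12.2). Rps14 had 785 and 42 reads, 18.8-fold (13.8 to 26.3). Rpl3, at the peptidyl transferase centre, had 1305 and 127 reads, 10.3-fold (8.61 to 12.5).

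Large-subunit and small-subunit names fell together. The median log2 ratio was -4.19 in 49 large-subunit and -4.42 in 33 small-subunit genes. The ratio of large-subunit to small-subunit reads was 1.497 in replicate 1 (1.47 to 1.52) and 1.79 in replicate 2 (1.66 to 1.94), a mean of 1.65 ± 0.21 (SD, n = 2). These binomial intervals did not overlap. The ratio was not adjusted for transcript length, by which the libraries differed.

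The start sequences bear on how these mRNAs are grouped, because the TOP element begins at the first base of the mRNA. RefSeq start sites on GRCm38.p6 were found for 66 of the 85 genes (78 starts). A start was counted as TOP when its first base was C and at least 5 bases from there were C or T. This held for 14 of the 78 starts (17.9%), against 2.51% of 32851 starts of all genes in the same table. At the first base of the most used annotated GENCODE model the count was 9 of 82 genes (11%), and 2.42% of all 9168 genes with at least 10 reads and such a model, so the count depends on which start is taken. Below are 8 of the starts, 10 bases before to 20 after the RefSeq start, 5′ to 3′ on the strand of the gene, with the run of C and T from the first mRNA base in capitals.
Rpl14 (chr9:120571507-120571536, plus strand): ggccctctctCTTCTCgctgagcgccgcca
Rpl15 (chr14:18270967-18270996, minus strand): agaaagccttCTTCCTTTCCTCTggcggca
Rpl28 (chr7:4792955-4792984, plus strand): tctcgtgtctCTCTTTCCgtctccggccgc
Rpl35 (chr2:39005112-39005141, minus strand): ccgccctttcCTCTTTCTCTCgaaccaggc
Rpl35a (chr16:33056472-33056501, plus strand): gcttgccttcCTCTTTCCgccatcttggcg
Rps6 (chr4:86857348-86857377, minus strand): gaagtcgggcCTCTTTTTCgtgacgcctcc
Rps10 (chr17:27635225-27635254, minus strand): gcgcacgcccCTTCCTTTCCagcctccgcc
Rps18 (chr17:33955646-33955675, minus strand): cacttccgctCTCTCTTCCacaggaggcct

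In the windows around these starts, from 250 bases before to 50 after, on both strands, the letters CCGGAAG, a core of the sites of ETS factors, were in 27 of 78 (34.6%) against 8.86% of all windows. The letters AAGATGGC, part of the YY1 motif, were in 8 of 78 (10.3%) against 2.75%, and GGGCGG, an Sp1 core, in 60.3% against 35.7%. The TATA letters TATAAA were in 7 of 78 (8.97%) against 13.6%. A match describes the letters only. The 14 genes with a TOP start had a median log2 ratio between the libraries of -4.05 (-6.01 to -2.91), and the 49 others with a RefSeq start and reads -4.38 (-7.02 to -0.84). Both groups were thus lower in replicate 2 over overlapping ranges. The rule looks at the exact listed start base and found few TOP starts, although most of these mRNAs are known to begin with the element. The 49 others may therefore hold TOP mRNAs, and the comparison cannot separate TOP from other mRNAs.

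The libraries differed by transcript length for genes of all kinds, so the ribosomal protein genes were set beside other genes of their length. Of the 82 genes, 34 had a most used annotated model under 750 nt, 24 one of at least 750 but under 1000 nt and 24 a longer one, with a median of 814.5 nt. Among genes under 750 nt with at least 20 reads, the 34 ribosomal protein genes had a median log2 ratio of -4.23 and the 363 other genes -4.16. Between 750 and 1000 nt the medians were -4.48 in 24 and -4.09 in 330 genes. Between 1000 and 1500 nt they parted to -4.28 in 14 ribosomal protein genes and -3.24 in 793 others. With the last exon taken from other models, as described below, the medians of this bin were -3.52 in 6 ribosomal protein genes and -3.08 in 988 others. So the short ribosomal protein genes had medians near those of other short genes, and the gap in the longer bin was smaller with the changed lengths.

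**Figure D2:**
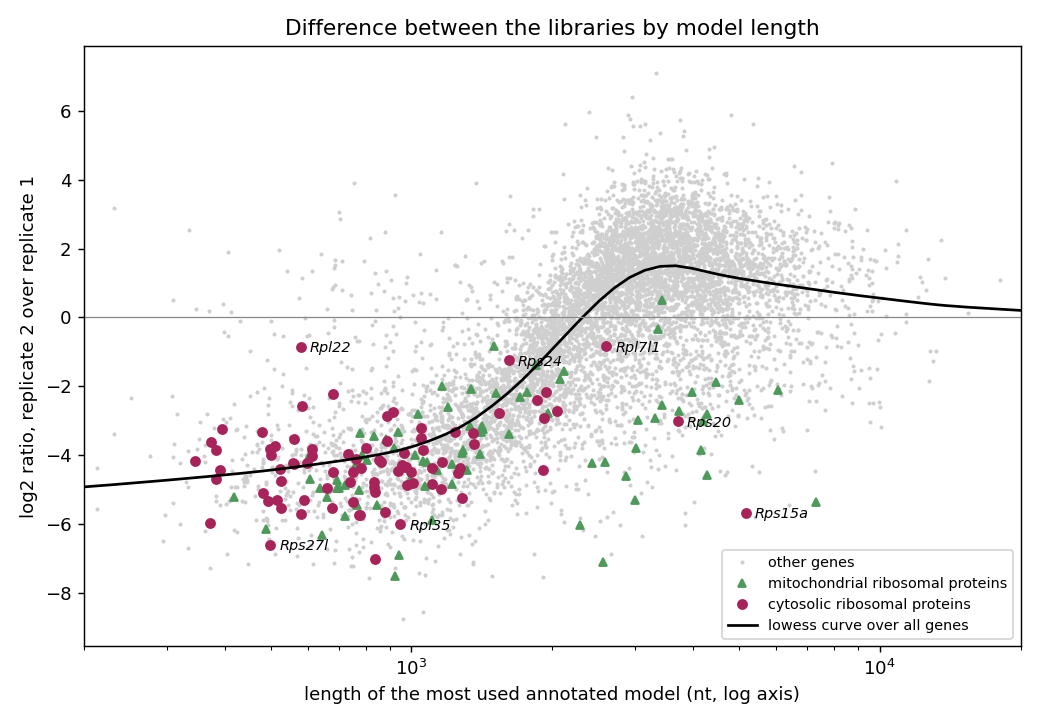
Log2 ratio of replicate 2 over replicate 1 against the most used annotated model's length (log axis) for genes with at least 20 reads, with cytosolic (circles) and mitochondrial (triangles) ribosomal protein genes marked and the lowess curve over all genes. Most circles lie near the curve at its short end, while Rps15a and Rps20 lie far below it at annotated lengths of 5179 and 3706 nt, and Rpl22 lies above it at 581 nt.

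In the length-adjusted binomial test the expected share of each gene was set from a lowess curve of the log2 ratio on that length. It called 50 of the 82 genes (61.0%), 38 toward replicate 1 and 12 toward replicate 2, where 42.4% of 9173 genes were called. The median adjusted log2 ratio was -0.50, and 0.07 over all genes. Far below the curve were Rps15a (-6.78), Rps20 (-4.51), Rps3 (-3.21), Rps27l (-2.17) and Rpl35 (-2.16). Above it were Rpl22 (3.48), Rpl18 (1.97), Rps12 (1.75), Rps21 (1.34) and Rpl7a (1.15). Of these 10, all but Rpl7a and Rps27l kept their call under each scaling, filter, span and length planned. Rpl7a lost it without a filter on low counts and with a span of 0.6, and Rps27l with that span and with the mean length over models.

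For many of these genes the annotated length hangs on the last exon. GENCODE M21 gives the most used model of Rps15a a last exon of 4822 nt, while the median last exon of 3 incomplete or unannotated spliced models with the same last acceptor was 130 nt. The same lengths were 3350 and 211 nt in Rps20 (from 1 such model), 1056 and 59 nt in Rps3, 1185 and 84 nt in Rps24, 970 and 160 nt in Rpsa, and 1109 and 154 nt in Rpl5. Rpl22 went the other way, with 197 nt annotated and 1791 nt as the median over 11 other models, which few reads use: 7 of its 193 reads in replicate 1 and 10 of 108 in replicate 2 were on a last exon of at least 1500 nt. In 26 genes the annotated last exon was at least 100 nt the longer. The number of ribosomal protein genes with a length of 1000 nt or more went from 24 to 9 when the last exon was taken from the other models.

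With lengths changed in this way for all genes, an alternative added after the data were seen, the length-adjusted binomial test called 42 of the 82 (51.2%), 27 toward replicate 1 and 15 toward replicate 2, where 34.0% of all genes were called. The median was -0.22, and 0.01 over all genes. The calls toward replicate 1 were shared with the annotated length for 26 genes and those toward replicate 2 for 10. Rps15a went from -6.78 to -1.15 and Rps3 from -3.21 to -0.58, still called. A call toward replicate 1 became a call toward replicate 2 in 4 genes: Rps20 (1.38, adjusted p = 0.00026 by the binomial test), Rpl15 (from -1.75 to 1.13, 1.7e-05), Rpl5 (0.75, 0.0052) and Rpsa (1.20, 2.2e-07). The opposite turn was seen in Rpl22 (-0.77, 4.7e-05). Rpl7l1 (0.32, 0.44) lost its call and turned its sign, and Rpl21 went from -0.998 to 1.63 with no call under either length. Rpl12, Rpl22l1, Rpl23, Rpl36 and Rplp2 also turned their sign, from uncalled values near 0. Rps24 rose from 0.93 to 3.24 and was then the farthest above the curve. That value used a changed length of 512 nt for Rps24. Averaged over its reads, model length was greater in both libraries (replicate 1: 1274 nt, replicate 2: 2709 nt). The place of Rps24 thus rests on a length far below that of its replicate 2 models. Rpl35 (-2.24), Rps6 (-1.76), Rps19 (-1.66), Rpl18 (2.00) and Rps12 (1.82) hardly moved. Lengths here are those of models, not of reads.

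**Figure D3:**
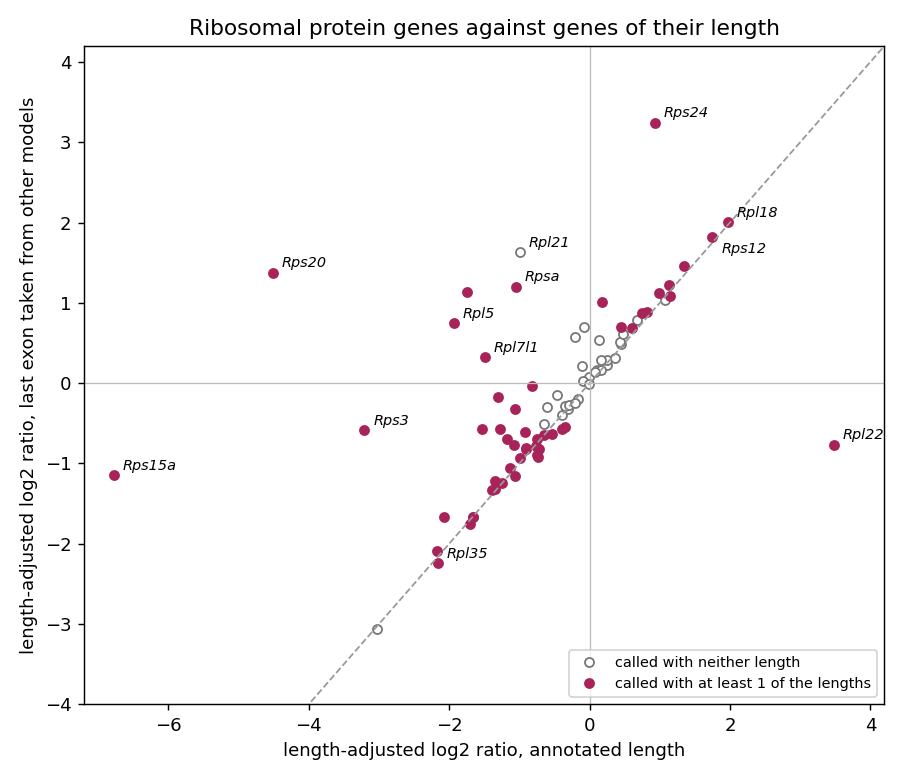
Length-adjusted log2 ratio (replicate 2 over replicate 1) of 82 ribosomal protein genes with the annotated length (horizontal) and with the last exon taken from other models (vertical). Filled circles passed the binomial test with at least 1 of the lengths. Most lie on or near the dashed line of equal values, while Rps20, Rps15a, Rpl15 (the unlabelled filled circle at -1.75 and 1.13), Rpl5, Rpl21, Rps3, Rps24, Rpsa and Rpl7l1 lie farthest above it and Rpl22 farthest below.

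The reads of these genes were mostly on annotated models. TALON, the program used by the authors, put 95.6% of ribosomal protein reads on annotated models in replicate 1 (95.4% to 95.7%) and 83.9% in replicate 2 (82.5% to 85.3%), a mean of 89.7% ± 8.24 (SD, n = 2). Over all protein-coding genes the shares were 78.7% and 74.2%. Incomplete matches, which hold part of the junctions of an annotated transcript, made up 2.55% and 8.14%, and of these reads 77.6% and 71.7% were on models that lack the 5′ end. New combinations of known splice sites made up 0.388% and 3.13%, models with an unannotated splice site 1.39% and 2.30%, and genomic models, mostly unspliced reads inside the gene, 0.101% and 2.52%. The matching shares over all protein-coding genes were 10.8% and 10.9% for incomplete matches, 3.10% and 6.74% for new combinations, 2.56% and 5.17% for unannotated splice sites, and 4.86% and 2.95% for genomic models. In both libraries the ribosomal protein reads were thus more often annotated, and less often in the other classes, than the reads of all protein-coding genes, except that the intervals of the genomic share overlapped in replicate 2 (1.97% to 3.17% and 2.910% to 2.999%).

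**Figure D4:**
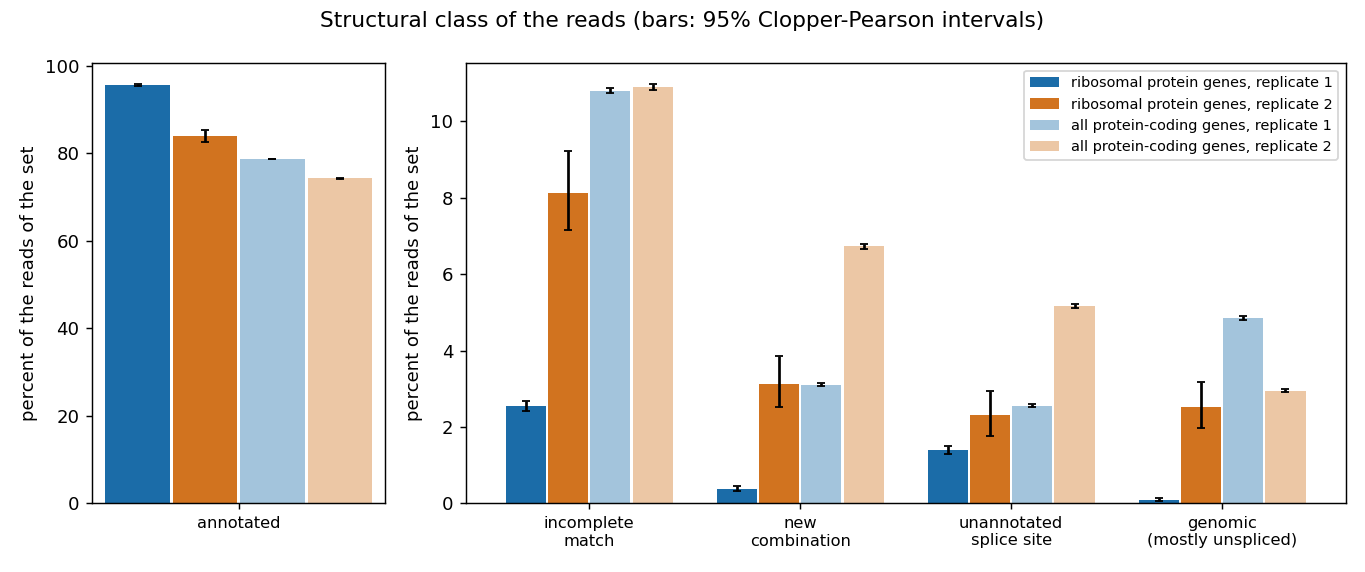
Percent of reads in each structural class for ribosomal protein genes (dark) and for all protein-coding genes (light) in replicates 1 and 2. Error bars are 95% Clopper-Pearson intervals. Ribosomal protein reads are 95.6% and 83.9% annotated, against 78.7% and 74.2% for all protein-coding genes.

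The non-annotated reads of replicate 2 were also on longer models. Models of at least 1500 nt held 15.8% of the non-annotated ribosomal protein reads in replicate 1 (14.3% to 17.3%) and 68.5% in replicate 2 (63.9% to 72.7%). Their median model length by read was 694 and 2118 nt. Over all ribosomal protein reads the median was 833 nt in replicate 1 and 977 nt in replicate 2, a mean of 905 ± 102 nt (SD, n = 2). Among the 72 genes that had at least 10 reads in both libraries, the mean model length per read was longer in replicate 2 in 52, and the annotated share was lower in 61. Annotated retained-intron transcripts held 0.918% of the ribosomal protein reads in replicate 1 and 4.43% in replicate 2, against 0.901% and 1.14% for all protein-coding genes.

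Isoform use, the share of a gene's reads on its most used model, differed between the libraries in 26 of 71 genes by Fisher's exact test (36.6%), where 28.7% of 4733 genes were called. In all 26 the share was lower in replicate 2. The most used model was chosen by the summed reads of both libraries. For these genes most reads came from replicate 1 (52635 against 2778). The choice thus favours a lower share in replicate 2, to an extent that was not tested. The median share over the 71 genes was 93.1% in replicate 1 and 80% in replicate 2, and over all tested genes 65.7% and 68.4%. These 2 sets are not alike in the balance of their reads, since the median log2 ratio over all genes was -0.01. With annotated models alone 8 of 56 genes were called, beside 9.54% of 1950 genes.

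The 6 largest differences among called genes were in Rpl34, Rpl10a, Rps24, Rpl35a, Rps9 and Rpl27. Rpl34-202 fell from 83.6% to 37.5% of the reads of Rpl34, and 6 of 24 reads of replicate 2 were on the unspliced transcript Rpl34-206, which had 0 of 244 in replicate 1. Rpl10a-201 went from 86.9% to 44.7%, and the retained-intron transcript Rpl10a-204 from 0.288% (3 reads) to 21.1% (8 reads). Rps9-201 went from 88.0% to 50%, with 7 of the 30 reads of replicate 2 on an unspliced genomic model. Rpl27-201 went from 85.3% to 50% of 232 and 16 reads. Rpl35a-205 went from 56.0% to 16.7%, with 4 of 12 reads of replicate 2 on Rpl35a-206, a retained-intron transcript. The second model of replicate 2 by reads in Rpl34, Rpl10a and Rps9, and the first in Rpl35a, thus holds intron sequence. Few reads stand behind the shares of replicate 2, from 12 in Rpl35a to 87 in Rps24.

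Rps24 (chr14:24487125-24496959, GRCm38, plus strand) is known for tissue-dependent splicing of very small exons that changes the last residues of its protein. Its most used model, Rps24-210, took 45.1% of 206 reads in replicate 1 and 5.75% of 87 in replicate 2. The next in replicate 1, with 62 reads, was an unannotated model with a 36-nt exon at chr14:24494052-24494087, which starts at the same base as the exon of Rps24-205 but ends 18 nt beyond the 18-nt exon annotated there. Among reads that either skip from the preceding exon to the last one or include this exon, 71 of 170 included it in replicate 1 (41.8%, 34.3% to 49.6%) and 4 of 9 in replicate 2 (44.4%, 13.7% to 78.8%). At this depth no difference between the libraries was detectable. The next small exon, of 20 nt in Rps24-205, had 0 reads with both of its splice sites in each library.

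The coding ends that go with these choices show what they change, because the transcripts share all coding bases up to the last few. They were read from the GENCODE M21 transcript sequences, with the 12 last shared bases in lower case and the part that differs, stop codon included, in capitals.
Rps24-202: gctggcaaaaagTGA
Rps24-205: gctggcaaaaagAAATGA
Rps24-210: gctggcaaaaagCCAAAGGAGTAG
Rps24-210, which skips both small exons, has 133 codons before the stop, Rps24-205 has 131 and Rps24-202 has 130. The stop codon of Rps24-205 ends at base 24494057, inside the 36-nt exon, so the unannotated model with the same start of that exon holds the same letters there.

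In replicate 2 most Rps24 reads were elsewhere. The retained-intron transcripts of Rps24 held 16 of 206 reads in replicate 1 (7.77%, 4.505% to 12.3%) and 30 of 87 in replicate 2 (34.5%, 24.6% to 45.4%), and these intervals did not overlap. A junction from the donor of the 20-nt exon to the last exon was on 2 reads in replicate 1 and 25 in replicate 2, in models whose exon reaches further upstream. The small difference of Rps24 between the libraries, 2.38-fold, thus came with a different set of models.

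The other genes with a divided use of models were Rpl5, Rpl35a, Rpl38, Rpl30 and Rpl31. In Rpl5, the full transcript Rpl5-201 held 52.7% and 54.9% of reads in replicates 1 and 2, and the shorter retained-intron transcript Rpl5-204 (1024 nt) 41.9% (140 of 334) and 33.3% (17 of 51), so both libraries held both. In Rpl38 the leading transcript held 55.5% and 80%, of 647 and 10 reads. Rpl30-202 held 62.7% and 50%, of 75 and 10 reads, and Rpl31-201 70.7% and 43.8%, of 184 and 16. Fisher's exact test called none of Rpl5, Rpl38, Rpl30 and Rpl31 (adjusted p from 0.12 to 1.0).

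Rpl22 was unusual in that its most used model is not annotated as coding. Rpl22-205, a processed transcript of 581 nt, held 158 of 193 reads in replicate 1 (81.9%) and 90 of 108 in replicate 2 (83.3%). Reads on models with a last exon of at least 1500 nt were 7 (3.63%, 1.47% to 7.33%) and 10 (9.26%, 4.53% to 16.4%).

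Some ribosomal protein genes have paralogs of their own. Rpl3l, a muscle paralog of Rpl3, Rpl10l, which takes over from Rpl10 in male germ cells, and Rpl39l, a germ cell paralog of Rpl39, had 0 reads in both libraries, which allows up to 3.70 CPM in replicate 1 and 5.10 CPM in replicate 2. Rpl36al had more reads than Rpl36a in both libraries (495 against 222, and 18 against 6), or 69.0% and 75.0% of the pair. Rpl22l1 had 44.9% of the reads it shares with Rpl22 in replicate 1 (157 reads) and 6.09% in replicate 2 (7 reads). Rpl7l1 held 9.95% and 53.2% of the reads of Rpl7 and Rpl7l1. The most used annotated models of Rpl7l1 and Rpl7 are 2606 and 1163 nt, where the length curve stands at 0.66 and -3.43. This share was not adjusted for length. Rps27l held 33.7% and 7.14% of those of Rps27 and Rps27l. The coding sequences of these pairs were 87.9%, 68.2%, 54.9% and 76.1% identical. Rps27rt was 100% identical to Rps27 over its coding sequence, and with 274 and 22 reads against 475 and 26 its reads cannot be told apart from those of Rps27 by coding bases.

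Processed pseudogenes, intronless copies of spliced mRNAs, took reads beside many ribosomal protein genes. Of the pseudogenes with reads, 188 were tied to these genes by name or by a blastn match of at least 80% identity over at least 50% of the pseudogene. They held 9851 reads in replicate 1 and 601 in replicate 2, which is 15.8% (15.5% to 16.1%) and 17.8% (16.5% to 19.1%) of the reads on genes and pseudogenes together. Of these reads 99.8% and 98.3% were on unspliced models. Copies of at least 99% identity numbered 100 and held 9376 and 537 of the reads, so the assignment of a read to the gene or to its copy is uncertain for them, and the levels of their genes are uncertain to the same extent.

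For 7 genes the pseudogenes held more reads than the gene in both libraries, among them Rpl21, Rpl10, Rpl17, Rpl35a, Rpl30 and Rpl31. Rpl10, a protein of the peptidyl transferase centre encoded on the X chromosome, had 48 and 3 reads, while its matched copies had 1279 and 64, almost all on Rpl10-ps3 (1265 and 62), which is 100% identical over the aligned part and carries the type protein-coding in the annotation. With them Rpl10 would stand at 1638 in place of 59.2 CPM in replicate 1. Rpl21 had 28 and 5 reads and its 11 copies 869 and 49. Rpl17 had 26 and 0 reads, and its 8 copies 246 and 31. Its 0 in replicate 2 therefore stood beside reads on near-identical copies. Rpl35a had 166 and 12 reads and its copies 769 and 24, of which Gm10243 held 647 and 21.

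**Figure D5:**
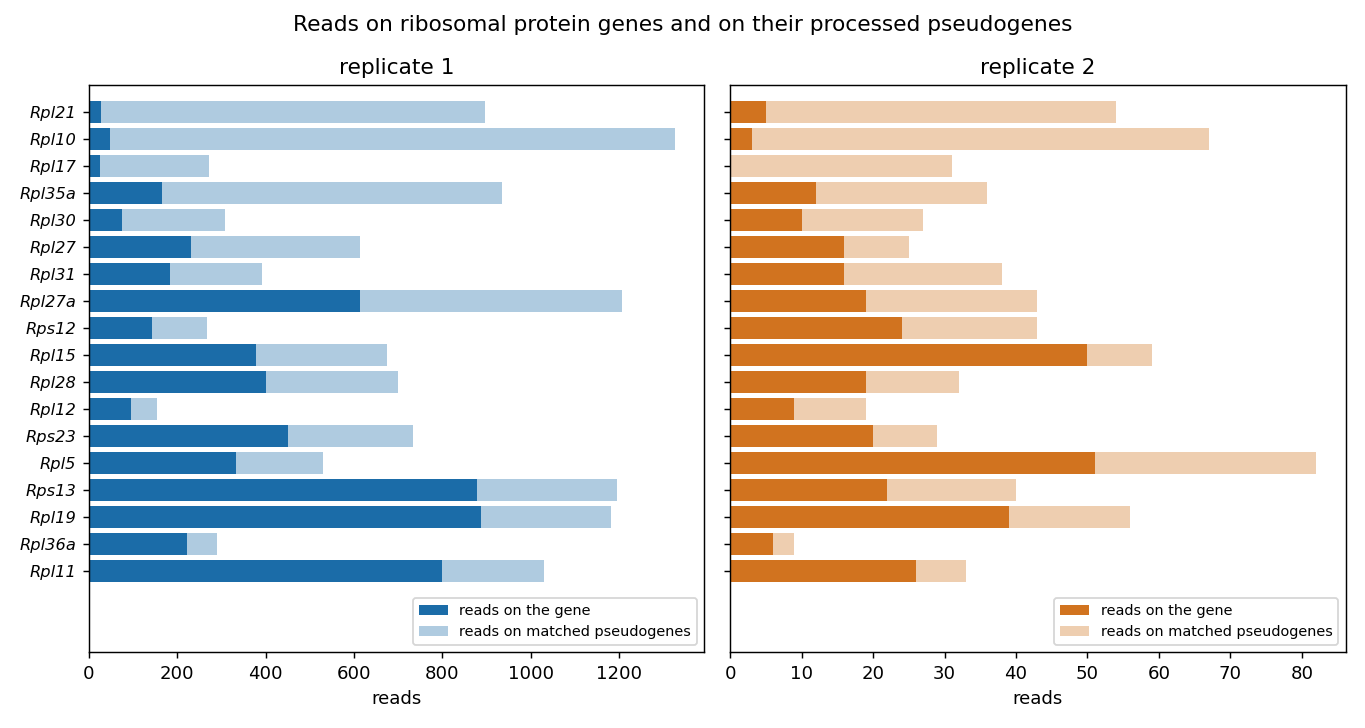
Reads on 18 ribosomal protein genes (dark) and on their matched pseudogenes (light) in replicate 1 and replicate 2, on separate linear axes, ordered by the pseudogene share in replicate 1. For Rpl21, Rpl10 and Rpl17 the light part is over 90% of the bar in both libraries.

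The pseudogenes followed their genes in direction. Of 79 with at least 10 reads, 76 were called higher in replicate 1 and 0 higher in replicate 2 by the binomial test. Their median log2 ratio was -3.71. Of all genes tested, 35.6% were called higher in replicate 1, and of the other genes under 750 nt with at least 20 reads 87.9%. Since reads on near-identical copies may belong to the genes, this count is not independent of the genes' own calls. Adding their reads left the sign of all 72 genes with such a copy, from -5.96 to -0.85.

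Related groups were set beside the ribosomal protein genes. Of 16 other TOP mRNAs, 13 were called toward replicate 1 and 3 toward replicate 2, with a median of -3.29 at a median length of 1765.5 nt. Those higher in replicate 2 were Eef2 (475 and 5571 reads), Eef1a1 (1051 and 2088) and Eif4b (100 and 646), of 3089, 1794 and 3854 nt, while Naca (764 and 21 reads, 885 nt), Btf3 (347 and 21, 888 nt) and Tpt1 (1056 and 77, 1169 nt) were higher in replicate 1. Length-adjusted, 9 were called toward replicate 1 and 4 toward replicate 2, with a median of -0.84, where 42.4% of all genes were called. The adjusted values ran from -4.18 in Eif3f to 2.57 in Eef1a1, with Eef2 at 2.23. With the last exon from other models the counts were 6 and 5 and the median -0.29.

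Mitochondrial ribosomal protein genes, which encode the ribosome of the organelle, gave 76 of 78 calls toward replicate 1 and 0 toward replicate 2. Their median log2 ratio was -3.98 at a median length of 1284 nt, and length-adjusted it was -0.97, with 26 called toward replicate 1 and 3 toward replicate 2, where 42.4% of all genes were called. With the last exon from other models these counts were 9 and 5 and the median -0.56. Ribosome assembly factors, 20 genes such as Fbl, Ncl and Eif6, were mixed. Of them, 12 were called higher in replicate 1, 5 in replicate 2 and 3 in neither. Their median log2 ratio was -1.12 at a median length of 2544 nt. Length-adjusted, 8 of them were called toward replicate 1 and 5 toward replicate 2, with a median of -0.73. With the last exon from other models these counts were 6 and 5 and the median -0.42. Of 12 regulators of translation, 11 could be tested: 5 were higher in replicate 1, 1 in replicate 2 and 5 in neither. Length-adjusted, 10 could be tested: 7 were called toward replicate 1 and 1 toward replicate 2, with a median of -1.80. With the last exon from other models these counts were 4 and 1 and the median -0.60. Without the length adjustment Mtor (10 and 9 reads) and Larp1 (12 and 10) were not called, and Eif4ebp1, the repressor 4E-BP1, was at 82 and 2 reads. Length-adjusted, Mtor was called toward replicate 2 (3.60, at a model length of 1003 nt) and Eif4ebp1 toward replicate 1 (-4.13). Larp1 had no annotated length for that test. In these lists all calls set 1 library against the other. Of all genes, 66.2% were called, 42.4% length-adjusted and 34.0% with the last exon from other models.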

How the data were processed

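The authors' deposited values are raw read counts per TALON transcript model, made separately for each library. The build is mm10, per the labels, with GENCODE M21 identifiers. No source used here names the aligner, platform or cDNA preparation. Model lengths and coordinates are those deposited. Whether model ends were set to annotated ones is not stated. A gene's count is the sum over its models. CPM were computed over all reads (810239 and 587861).

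Members and lists were chosen with earlier results of these data known. Replicates were compared by exact binomial tests (genes with at least 10 reads, TMM sizes from edgeR 4.0.16, pseudocount 0.5 for log2 ratios), with or without a length curve (lowess, span 0.3, genes with at least 20 reads), and by Fisher's exact test of the most used model (at least 10 reads in each library), all Benjamini-Hochberg adjusted at 0.05 over all genes. With 1 library against 1, edgeR's own test could not be fitted. A fold against 0 reads used 3 reads in place of 0. Pseudogenes were matched with blastn 2.17.0. Scripts used Python 3.11.15, scipy 1.17.1 and statsmodels 0.14.6 and were tested on simulated data. Motif letters and the TOP rule were added after first results were seen. Genes were named by rule: the 8 highest, the 5 largest called differences in each direction of each test, the lowest and most different model shares, genes by role, paralogs and genes at 0. Others are named as chosen after their values were seen in the last exon, under 5-fold and pseudogene passages. Some single-gene results are not reported here. Alternatives covered scaling, filters, model classes, length measure, gene lists and leaving out each replicate.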

Additional observations from a re-analysis of the deposited data

How the results depend on the processing

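All 82 calls toward replicate 1 stood with RLE size factors, without a filter and with annotated models only, and 81 with library totals. With at least 50 reads 80 stood, since that filter leaves out Rpl17 (26 and 0 reads) and Rpl21 (28 and 5). With the length-adjusted share, 38 were called toward replicate 1, since this test asks about genes of equal length. The 50 length-adjusted calls ranged from 40 to 50 over scaling, filters, annotated models, span 0.6, mean length, a curve fitted without these genes and other last exons. The values of Rpl22 (-0.77), Rpl5 (0.75), Rpsa (1.20), Rps20 (1.38) and Rpl7l1 (0.32) turned their sign with the last exon taken from other models, as did other genes, of which Rpl15 (1.13) turned its call. Isoform use was called in 8 genes with annotated models only, where fewer genes were tested, and in 20 with at least 20 reads in each library or with models of at least 2 reads. Without replicate 1 or replicate 2 the share of reads was 0.473% or 6.50%, the annotated share 83.9% or 95.6%, the large-to-small ratio 1.79 or 1.497 and the median model length 977 or 833 nt. With annotated models only, without paralogs or with pseudogenes, the mean share of reads stayed between 3.42% and 4.44%. No paired analysis was possible because there is only 1 group. Depth limits shares in replicate 2, where most of these genes had under 100 reads.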
